A study of Mus musculus with 4 samples.

Results

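The nuclear-encoded genes of the mitochondrial respiratory chain and ATP synthase were examined in the embryonic mouse outflow tract. Members were all genes of the count table whose symbol begins with Nduf, with Sdh and a letter from a to d, with Uqcr, with Cox4 to Cox8 or with Atp5. This gave 108 rows, from which 11 processed pseudogenes were left out, so that 97 of the 45706 genes in the table were members. Of these, 38 fell to complex I, 4 to complex II, 8 to complex III, 18 to complex IV and 17 to complex V. The other 12 encode assembly factors (Ndufaf and Sdhaf genes), which help to build complexes I and II without being part of them, and are given as a group of their own.

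The tissue was the outflow tract, through which the embryonic heart empties into its arteries, taken from C57BL/6 embryos at embryonic day 12.5. Wild-type (WT) embryos were set against Sox17eKO embryos, which lack the transcription factor gene Sox17 in aortic root endothelium because a Cre recombinase under an Nfatc1 enhancer removed it there. Every library was made from 10 pooled hearts, and there were 2 pools per genotype. RNA was taken from the whole outflow tract with its muscle, mesenchyme and blood cells, while the deletion was made in part of its endothelium, and no embryo was measured on its own.

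The respiratory chain carries electrons from NADH and succinate to oxygen through complexes I to IV in the inner mitochondrial membrane. Complexes I, III and IV pump protons, and ATP synthase, complex V, uses the gradient to make ATP. Most subunits are encoded in the nucleus and imported, some subunits of complexes I, III, IV and V are encoded by mitochondrial DNA, and complex II is nuclear throughout. The working heart depends on this system, and heart muscle uses its own isoforms of several complex IV subunits.

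Reads assigned to genes numbered 8113463 to 21883956 per library, and the members took 1.51% to 1.71% of them. A member had a median of 673 reads in WT replicate 2, the shallowest library, and of 1555 in Sox17eKO replicate 2, the deepest. Uniquely placed reads outside annotated exons made up 20.4% and 22.2% in WT and 29.5% and 34.1% in Sox17eKO, and their part in the results below was not tested. Sox17 itself was at 6.05 and 6.83 CPM in WT and at 2.76 and 2.82 CPM in Sox17eKO, lower in both knockout pools than in both WT pools (edgeR log2 fold change -1.19, adjusted p = 0.00574). Levels are given in CPM, the read count scaled to the reads of the tested genes in its library, with TMM factors that correct for differences in library makeup. Of the members, 95 passed the filter on low counts and were tested. The testis-enriched isoform genes Cox7b2, with 1, 2, 2 and 0 reads in WT replicates 1 and 2 and Sox17eKO replicates 1 and 2, and Cox8c, with 0, 1, 0 and 0 reads, did not.

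Of the 95 tested members, 3 were called lower in Sox17eKO and 0 were called higher (edgeR quasi-likelihood test, Benjamini-Hochberg adjusted p under 0.05 over 16570 genes). Among all genes tested, 1.22% were called lower and 4.13% higher, against 3.16% and 0% of the members. At an unadjusted p under 0.05, 38 members were lower and 0 higher, against 8.71% and 12.2% of all genes. DESeq2 also called 0 members higher. The called genes were Cox6b1 and Cox7a2l of complex IV and Atp5mpl of complex V.

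Small shifts in the same direction were spread over most members. The fitted level was lower in Sox17eKO for 87 of 95 members, against 51.8% of all genes tested. For 67 members both Sox17eKO libraries lay below both WT libraries, against 26.2% of all genes, and for 3 both lay above, against 26.5% of all genes. The libraries overlapped for the other 25. The median log2 fold change over the 95 members was -0.17, with a range from -0.42 to 0.38, against -0.01 over all genes tested. Summed over the members, the level was 16638 and 17584 CPM in WT and 14849 and 15411 CPM in Sox17eKO. In a bulk sample, fewer cells rich in these transcripts and less of the RNA per cell cannot be told apart.

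**Figure D1:**
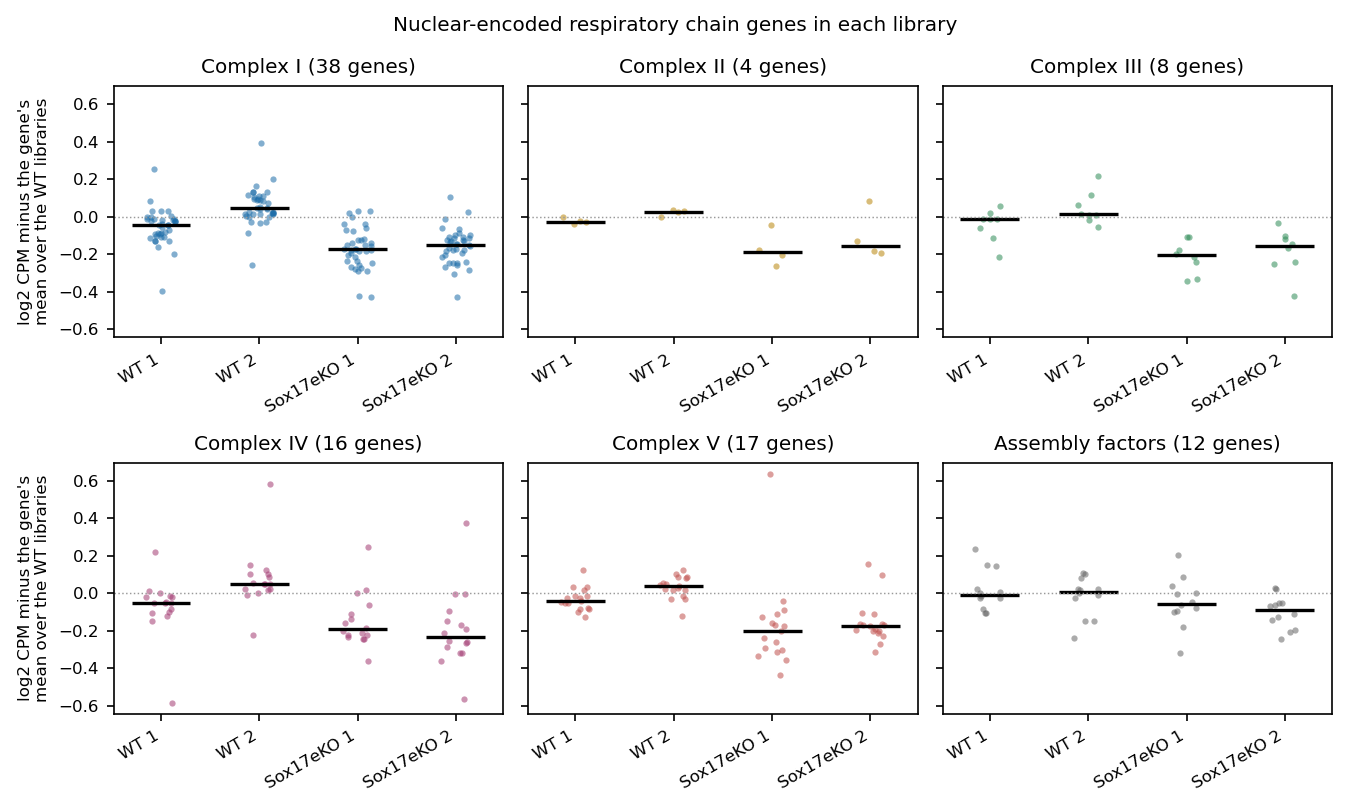
Level of each tested member in each library, as log2 CPM minus the gene's mean over the WT libraries, by complex (points are genes, black lines are medians over genes). The Sox17eKO medians lie below the WT medians in each panel, with a smaller distance for the 12 assembly factors, and WT replicate 2 lies above WT replicate 1.

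The WT pools differed between themselves. Relative to the WT mean, the median member stood at -0.03 in WT replicate 1 and at 0.03 in WT replicate 2 on the log2 scale, and at -0.18 and -0.17 in Sox17eKO replicates 1 and 2. WT replicate 2 held the highest value for 69 of 95 members. Without that library, the members' median log2 fold change was -0.12 and 0 members were called, while the number of genes called in all went from 886 to 192. Without WT replicate 1, the median was -0.21 and 13 members were called lower. Without Sox17eKO replicate 1, 1 member was called lower, and without Sox17eKO replicate 2, 4 were.

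Transcript length moved with the result. The members are short genes, with a median exonic length of 1675 bases against 3895 bases for all genes tested. When the tested protein-coding genes were put in 5 equal bins by exonic length, 69 members fell in the bin of the shortest genes, from 255 to 2581 bases. The median log2 fold change of all genes in that bin was -0.14, and that of its members was -0.19. In the bin of the longest genes the median of all genes was 0.16. Across the 13361 protein-coding genes tested, Spearman's rho between exonic length and log2 fold change was 0.46, and across the 95 members it was 0.28. These coefficients describe genes that share the same 4 libraries and carry no test.

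After each library's smooth dependence on exonic length and gene span had been taken out, the members' median log2 fold change was -0.04 and 0 members were called, against 1.00% of all protein-coding genes. The fitted level was then lower in Sox17eKO for 60 of 95 members, against 49.6% of the protein-coding genes. Both Sox17eKO libraries lay below both WT libraries for 29 members, or 30.5%, against 21.8% of the protein-coding genes. Removing the trend takes out technical differences that run with length and also any difference between the genotypes that does so, and these cannot be told apart here.

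**Figure D2:**
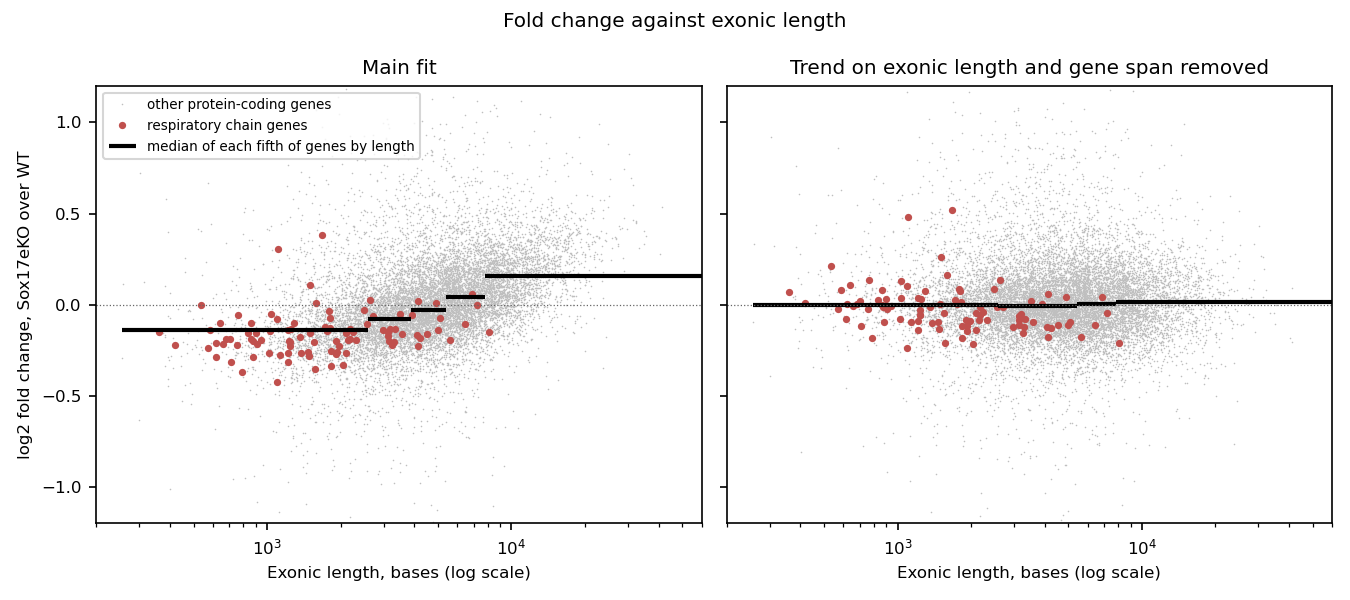
Log2 fold change of each protein-coding gene (Sox17eKO over WT) against its exonic length in bases on a log axis, before (left) and after (right) the trend on exonic length and gene span was removed, with members in red and the median of each of 5 length bins as a black line. The axes are cropped to the shown range. The median of the bin of the shortest genes lies at -0.14 on the left and at 0.00 on the right, and the median of its 69 members at -0.19 and -0.01.

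Complex I, the NADH dehydrogenase, had 38 tested members, of which 36 were fitted lower in Sox17eKO and 0 were called. For 26 of them the libraries did not overlap and Sox17eKO was lower, as for 26.2% of all genes tested. Once the length trend was taken out this held for 11 of the 38, against 21.8% of the protein-coding genes. The median log2 fold change was -0.13 over the 7 core subunits, which carry the flavin and iron-sulfur centres, and -0.16 over the 31 genes counted as accessory. Grouping was by symbol, so these 31 include Ndufa4, since assigned to complex IV, and its paralogue Ndufa4l2. Ndufv1, the core subunit that binds NADH, was at 200.02 and 205 CPM in WT and at 207 and 206 CPM in Sox17eKO. Both knockout values lay just above both WT values (log2 fold change 0.03, SE 0.08, edgeR adjusted p = 0.882). Ndufab1, the mitochondrial acyl carrier protein, was at 26.4 and 31.6 CPM in WT and at 28.8 and 31.1 CPM in Sox17eKO, with overlapping groups (log2 fold change 0.06, edgeR adjusted p = 0.823). These were the members of complex I with the highest fitted changes.

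At the other end of complex I stood Ndufa4l2 and Ndufa12. Ndufa4l2, a paralogue of Ndufa4 known to be induced by low oxygen, was at 6.75 and 11.6 CPM in WT and at 6.62 and 6.60 CPM in Sox17eKO. Its lower knockout mean rested on WT replicate 2, since WT replicate 1 lay close to both knockout pools (log2 fold change -0.42, SE 0.22, edgeR adjusted p = 0.276, and -0.03 without WT replicate 2). Ndufa12, an accessory subunit, was at 42.1 and 55.5 CPM in WT and at 35.9 and 39.7 CPM in Sox17eKO (log2 fold change -0.35, SE 0.12, edgeR adjusted p = 0.0868). The groups did not overlap, though WT replicate 1 lay nearer to Sox17eKO replicate 2 than to WT replicate 2. Ndufa4, named after complex I but since assigned to complex IV, had the highest level of the Nduf genes per kilobase of mRNA (413 CPM per kb in WT and 344 in Sox17eKO). It was at 237 and 267 CPM in WT and at 207 and 212 CPM in Sox17eKO (log2 fold change -0.26, SE 0.08, edgeR adjusted p = 0.0625).

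Complex II, succinate dehydrogenase, also works in the citric acid cycle. Sdha, the flavin-bearing catalytic subunit, was at 374 and 394 CPM in WT and at 372 and 406 CPM in Sox17eKO, and the knockout values enclosed those of WT (log2 fold change 0.02, SE 0.08, edgeR adjusted p = 0.912). The other 3 subunits were lower in both knockout libraries, as were 26.2% of all genes tested, and none of these 3 was called. Once the length trend was taken out, 2 of the 4 subunits lay lower without overlap, against 21.8% of the protein-coding genes. Sdhb, the iron-sulfur subunit and the highest of the complex per kilobase, was at 296 and 296 CPM in WT and at 261 and 271 CPM in Sox17eKO (log2 fold change -0.15, edgeR adjusted p = 0.26). Sdhc, a membrane anchor, was at 202 and 209 CPM in WT and at 171 and 181 CPM in Sox17eKO (log2 fold change -0.22, edgeR adjusted p = 0.0937). Sdhd, the partner anchor, was at 256 and 266 CPM in WT and at 226 and 228 CPM in Sox17eKO (log2 fold change -0.20, edgeR adjusted p = 0.135). The catalytic subunit and its 3 partners were not tested against each other.

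Complex III, the cytochrome bc1 complex, had 8 members and all 8 were fitted lower, against 51.8% of all genes tested. Its median log2 fold change was -0.20 and 0 were called. For 7 of the 8 both Sox17eKO libraries lay below both WT libraries, against 26.2% of all genes tested. Once the length trend was taken out this held for 2 of the 8, against 21.8% of the protein-coding genes. The median was then -0.03. Uqcrq, a small ubiquinone-binding subunit, was at 28.0 and 37.7 CPM in WT and at 27.5 and 24.2 CPM in Sox17eKO (log2 fold change -0.33, SE 0.13, edgeR adjusted p = 0.147). WT replicate 1 was close to Sox17eKO replicate 1, and without WT replicate 2 the log2 fold change was -0.12. Uqcrb, which lies near the quinone site, was at 48.0 and 44.4 CPM in WT and at 36.7 and 39.1 CPM in Sox17eKO (log2 fold change -0.29, SE 0.09, edgeR adjusted p = 0.0789). Uqcrh, the hinge protein that meets cytochrome c1, had the highest level per kilobase in the complex and was at 297 and 322 CPM in WT and at 269 and 260 CPM in Sox17eKO (log2 fold change -0.23, SE 0.08, edgeR adjusted p = 0.0985). The members nearest to no difference were Uqcr11, at 71.5 and 72.9 CPM in WT and 63.9 and 70.5 CPM in Sox17eKO (log2 fold change -0.10), and the core protein gene Uqcrc2, at 399 and 389 CPM in WT and 365 and 366 CPM in Sox17eKO (log2 fold change -0.11). Both were lower in each knockout library than in either WT library.

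Complex IV, cytochrome c oxidase, held 2 of the 3 called genes among its 16 tested members, and 14 were fitted lower. Among all genes tested, 1.22% were called lower and 51.8% were fitted lower. For 12 of the 16 both Sox17eKO libraries lay below both WT libraries, against 26.2% of all genes tested. Once the length trend was taken out this held for 3 of the 16, against 21.8% of the protein-coding genes. The fitted level was then lower for 9 of the 16, against 49.6%. Cox6b1 encodes the subunit that faces the intermembrane space near the cytochrome c site, and is a minus-strand gene at chr7:30616861-30626151 of mm10. It was at 335 and 359 CPM in WT and at 270.0 and 288 CPM in Sox17eKO, so that the groups were clearly apart. The fitted level fell to 80.5% of that in WT (log2 fold change -0.31, SE 0.08, edgeR adjusted p = 0.0265). Cox7a2l encodes a COX7A-like protein described as a factor of supercomplexes of complexes III and IV, a role not measured in these embryos. The gene lies on the minus strand at chr17:83501918-83517330. It was at 125 and 129 CPM in WT and at 111 and 98.8 CPM in Sox17eKO, and fell to 82.4% of the WT level (log2 fold change -0.28, SE 0.08, edgeR adjusted p = 0.0452). Both calls were lost without WT replicate 2 (log2 fold change -0.26 for each, edgeR adjusted p = 0.208 for Cox6b1 and 0.225 for Cox7a2l). Once the length trend was taken out, their log2 fold changes were -0.11 and -0.13 (edgeR adjusted p = 0.488 and 0.445). That of Cox6b1 was also lost without Sox17eKO replicate 1 (log2 fold change -0.27, edgeR adjusted p = 0.192). That of Cox7a2l was also lost without WT replicate 1, where the log2 difference was larger, -0.30 (edgeR adjusted p = 0.0576), and without Sox17eKO replicate 2, at -0.20 (edgeR adjusted p = 0.312). The Cox7a2l call was also lost with DESeq2 (adjusted p = 0.0744), limma-voom (0.0753), library size scaling (0.0864) and edgeR without its robust option (0.0674), and the last also ended the Cox6b1 call (edgeR adjusted p = 0.0507). In these 4 settings the Cox7a2l log2 fold change ran from -0.28 to -0.25, and that of Cox6b1 stayed at -0.31 in the last.

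Cox4i1, the common form of the subunit through which ATP regulates the enzyme, was the highest of complex IV per kilobase. It was at 496 and 531 CPM in WT and at 433 and 457 CPM in Sox17eKO (log2 fold change -0.21, SE 0.08, edgeR adjusted p = 0.135). Cox5b, a subunit on the matrix side that binds zinc, was at 43.5 and 44.5 CPM in WT and at 44.5 and 43.9 CPM in Sox17eKO and showed no separation (log2 fold change 0.01, SE 0.09, edgeR adjusted p = 0.973). Cox6b2, a testis-enriched paralogue of Cox6b1, had the highest fitted change of the complex, with 1.24 and 2.78 CPM in WT and 2.21 and 2.41 CPM in Sox17eKO. Its groups overlapped, and its 95% interval ran from -0.46 to 1.07 (log2 fold change 0.30, edgeR adjusted p = 0.69).

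Several complex IV subunits have a form enriched in heart and skeletal muscle beside a form found in most tissues, and the share of each form was compared per kilobase of mRNA. Cox6a2, the muscle form, made up 29.7% and 26.5% of Cox6a transcripts in WT and 29.0% and 27.2% in Sox17eKO, with overlapping groups. It was at 82.5 and 81.2 CPM in WT and at 73.4 and 70.6 CPM in Sox17eKO, and the common form Cox6a1 at 164 and 189 against 151 and 159 CPM, so both forms were lower in each knockout library (both log2 fold changes -0.19, edgeR adjusted p = 0.174 and 0.199). Cox7a1, the muscle form of another subunit, was at 26.2 CPM in each of the 4 libraries (log2 fold change -0.00, SE 0.11, edgeR adjusted p = 0.996). Its 95% interval, from -0.23 to 0.22, holds the values of the Cox6a pair. The common form Cox7a2, also within that interval, was at 237 and 255 CPM in WT and at 224 and 206 CPM in Sox17eKO (log2 fold change -0.20, SE 0.08, edgeR adjusted p = 0.159). The share of Cox7a1 among Cox7a and Cox7a2l transcripts was 12.3% and 11.6% in WT and 13.1% and 14.1% in Sox17eKO, higher in both knockout libraries, and this difference was not tested.

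Cox8b, the muscle form of the smallest subunit, made up 4.79% and 3.19% of Cox8a and Cox8b transcripts in WT and 4.22% and 4.17% in Sox17eKO, without separation. Its level was 9.62 and 7.09 CPM in WT and 7.65 and 7.73 CPM in Sox17eKO, and that of the common form Cox8a was 292 and 328 CPM in WT and 266 and 271 CPM in Sox17eKO (log2 fold change -0.15 and -0.21, edgeR adjusted p = 0.692 and 0.138). Cox4i2, the lung-enriched form of Cox4 that responds to low oxygen, was at 7.60 and 8.73 CPM in WT and at 7.17 and 5.50 CPM in Sox17eKO (log2 fold change -0.37, SE 0.19, edgeR adjusted p = 0.28). Its share of Cox4 transcripts was 1.57% and 1.69% in WT and 1.70% and 1.24% in Sox17eKO, so the groups overlapped. The share of Ndufa4l2 among Ndufa4 forms was 1.82% and 2.76% in WT and 2.04% and 1.99% in Sox17eKO, also with overlap.

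**Figure D3:**
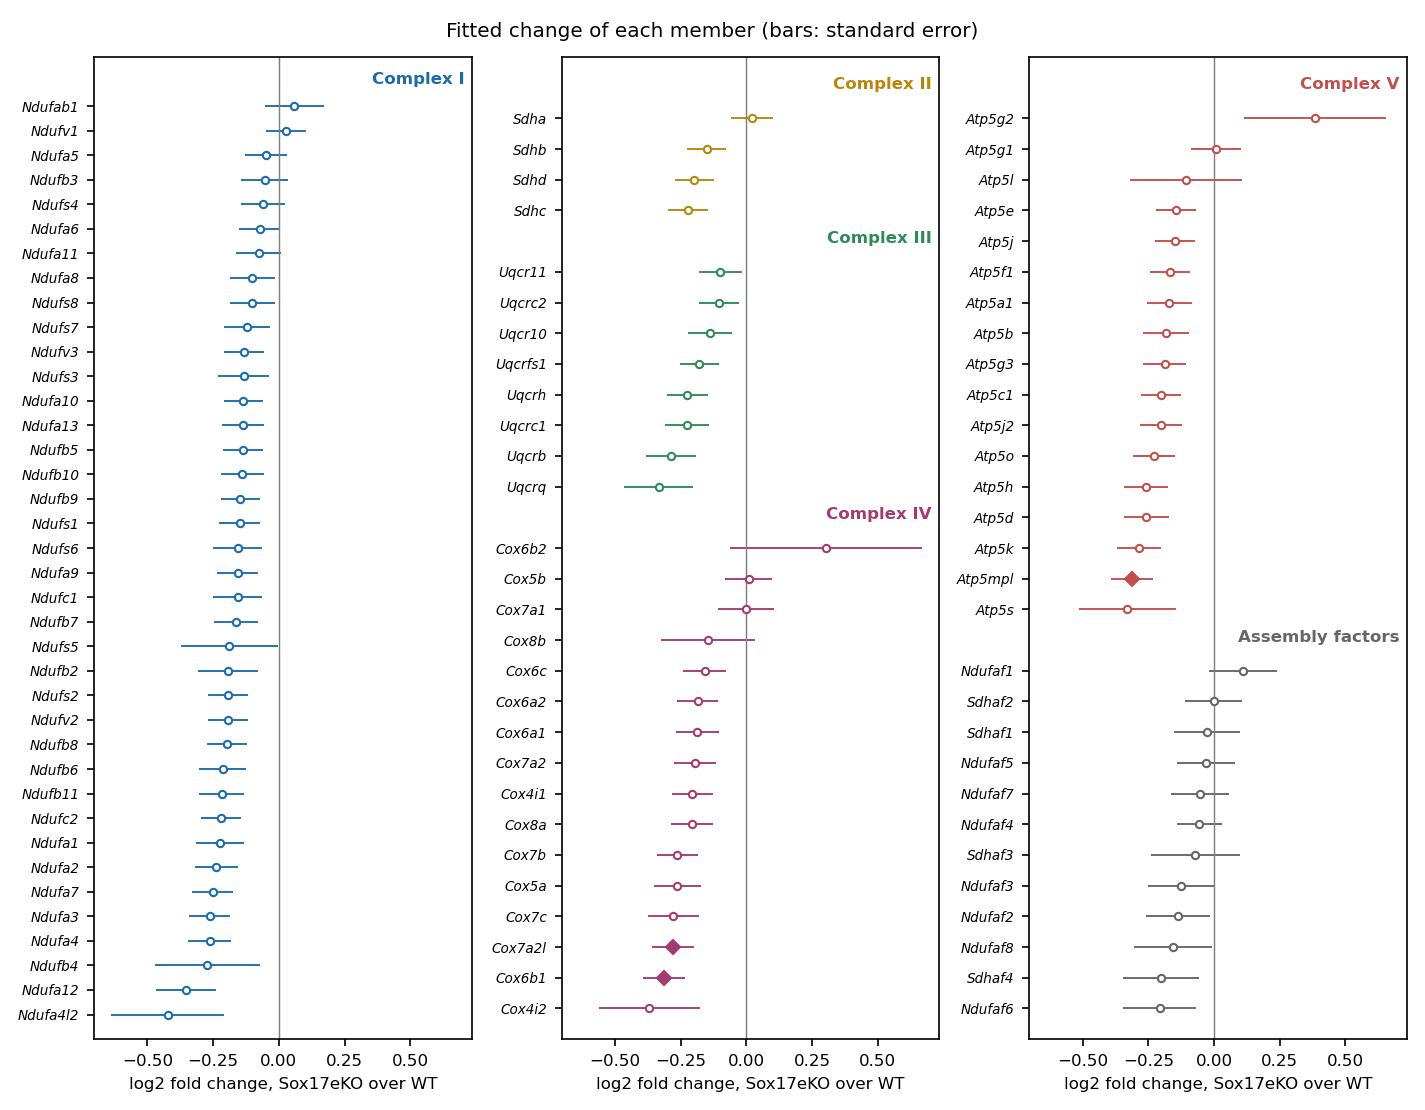
Fitted log2 fold change (Sox17eKO over WT) of each tested member, by complex, with its standard error as a bar; filled diamonds mark the 3 genes called lower and open circles the other 92. Most points lie left of 0, between -0.42 and 0, and the exceptions include Atp5g2 (0.38), Cox6b2 (0.30) and Ndufaf1 (0.11).

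Complex V, the ATP synthase, had 17 tested members, of which 15 were fitted lower and 15 lay lower without overlap. Among all genes tested, 26.2% lay lower without overlap. Once the length trend was taken out, 10 of the 17 did so, against 21.8% of the protein-coding genes. Atp5mpl, which encodes a small proteolipid of the membrane part, is a minus-strand gene at chr12:111961375-111966977. It was at 142 and 161 CPM in WT and at 122 and 122 CPM in Sox17eKO, with the knockout pools nearly equal and below both WT pools. The fitted level fell to 80.5% of that in WT (log2 fold change -0.31, SE 0.08, edgeR adjusted p = 0.0267). This call was lost without WT replicate 2, where the log2 value was -0.23 (edgeR adjusted p = 0.282). It was also lost without Sox17eKO replicate 1 or 2, where the log2 fold change stayed at -0.31 (edgeR adjusted p = 0.0830 and 0.0632), and with limma-voom, also at -0.31 (adjusted p = 0.0528). After removal of the length trend its log2 fold change was -0.14 (edgeR adjusted p = 0.42).

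By position in the enzyme, the median log2 fold change was -0.18 over the 5 genes of the F1 head and central stalk, -0.20 over the 4 of the peripheral stalk and -0.24 over the 4 accessory genes of the membrane part. Each of these 13 genes lay lower without overlap, against 26.2% of all genes tested. Once the length trend was taken out, 3 of 5, 3 of 4 and 4 of 4 did so, against 21.8% of the protein-coding genes. The medians were then -0.08, -0.09 and -0.12. Of the other genes of complex V, 0 of the 3 for the c subunit did so then, and neither did Atp5s. Atp5b, the catalytic beta subunit, had the highest level per kilobase of any member (1363 CPM per kb in WT and 1201 in Sox17eKO). It was at 2566 and 2658 CPM in WT and at 2181 and 2422 CPM in Sox17eKO (log2 fold change -0.18, SE 0.09, edgeR adjusted p = 0.244). Atp5s, named as a coupling factor, was at 8.53 and 7.21 CPM in WT and at 5.79 and 6.78 CPM in Sox17eKO (log2 fold change -0.33, SE 0.18, edgeR adjusted p = 0.322).

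The 3 genes of the c subunit, which forms the rotating ring and has the same mature protein from each gene, did not share a direction. Atp5g3, which supplied 97.0% to 97.8% of the c subunit transcripts per kilobase in each library, was at 381 and 439 CPM in WT and at 363 and 356 CPM in Sox17eKO (log2 fold change -0.19, SE 0.08, edgeR adjusted p = 0.196). Atp5g1 was at 46.6 and 44.5 CPM in WT and at 42.8 and 48.8 CPM in Sox17eKO (log2 fold change 0.01, edgeR adjusted p = 0.976). Atp5g2 was at 3.18 and 3.04 CPM in WT and at 4.83 and 3.46 CPM in Sox17eKO, above both WT pools in both knockout pools (log2 fold change 0.38, SE 0.27, edgeR adjusted p = 0.443). Of the 50-base windows of Atp5g2, 87.4% also occur in transcripts of other genes, so its uniquely placed reads cover a small part of it and its level is uncertain.

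The assembly factors stood nearer to no difference than the subunits, with a median log2 fold change of -0.06. Of the 12, 11 were fitted lower, 4 lay lower without overlap and 0 were called, also 0 at an unadjusted p under 0.05. Among all genes tested, 51.8% were fitted lower and 26.2% lay lower without overlap. The distance between the assembly factors and the subunits was not tested. Their median exonic length was 2152.5 bases, against 1569 bases for the subunits. Once the length trend was taken out, the median log2 fold change was 0.01 for the assembly factors and -0.05 for the subunits. Of the assembly factors, 5 were then fitted lower and 1 lay lower without overlap, against 49.6% and 21.8% of the protein-coding genes. Ndufaf1, a chaperone of complex I assembly, was at 15.8 and 16.2 CPM in WT and at 18.4 and 16.2 CPM in Sox17eKO (log2 fold change 0.11, SE 0.13, edgeR adjusted p = 0.678). Sdhaf2, which is needed to attach the flavin to Sdha, was at 39.6 and 32.1 CPM in WT and at 37.9 and 34.4 CPM in Sox17eKO, with overlap (log2 fold change -0.00). The lowest fitted changes were those of Ndufaf6, at 13.0 and 15.1 CPM in WT and 12.3 and 11.8 CPM in Sox17eKO (log2 fold change -0.21, edgeR adjusted p = 0.418), and of Sdhaf4, at 12.4 and 13.9 against 10.6 and 12.1 CPM (log2 fold change -0.20, edgeR adjusted p = 0.452). Neither passed the test. Ndufaf2, the highest of the group per kilobase, was at 19.2 and 19.9 CPM in WT and at 18.5 and 17.1 CPM in Sox17eKO (log2 fold change -0.14, edgeR adjusted p = 0.557), and 65.6% of its exonic bases overlap a gene on the other strand.

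Copies of these genes elsewhere in the genome limit some values. In 11 members at least 20% of the 50-base windows also occur in transcripts of other genes, and 0 of these were called. Among the 58 tested members with no such window, 54 were fitted lower and the median log2 fold change was -0.15. Exons of 32 tested members overlap exons of a gene on the other strand and those of 5 a gene on the same strand, and whether reads were counted by strand was not stated in the labels. Of the 60 with no overlapping exon, 54 were fitted lower, with a median log2 fold change of -0.18, and the 3 called genes were among them.

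Promoters of the members were searched for motifs of factors known to act on respiratory genes: GCGCA and GCGC with any base between them for NRF1, CCGGAAG for the ETS factors that include GABP, AAGATGGCG for YY1 and GGGCGG for SP1. The window was the 250 bases before the RefSeq start (GRCm38.p6), read on both strands, and 77 of the 95 tested members had an entry. NRF1 letters were found in 13 of the 77 windows (16.9%, against 8.17% of the 10425 windows of tested protein-coding genes), and ETS letters in 15 (19.5%, against 13.7%). SP1 letters were found in 31 (40.3%, against 60.5%) and YY1 letters in 0 (against 1.10%). Of the 49 members lower without overlap that had an entry, 6 held the NRF1 letters and 10 the ETS letters. Matches of each motif were counted whether or not they overlapped those of another, a match is a description of the sequence, and binding was not measured.

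Shown here are the called genes with an entry, Cox6b1 and Cox7a2l, and the members of smallest p whose exon-free window holds the NRF1 and the ETS letters, Atp5h (a peripheral stalk subunit of ATP synthase) and Uqcrh. The stretches lie on the minus strand and are given 5′ to 3′ toward the gene, at chr7:30626152-30626364, chr17:83514334-83514583, chr11:115419963-115420127 and chr4:116075072-116075268 of GRCm38.p6, without annotated exons. The Cox7a2l stretch lies before the RefSeq start used but within the span given above for the gene. Capitals mark the SP1 letters in Cox7a2l, the NRF1 letters in Atp5h and the ETS letters, on the opposite strand, in Uqcrh, and the Cox6b1 stretch holds none of the 4.
Cox6b1: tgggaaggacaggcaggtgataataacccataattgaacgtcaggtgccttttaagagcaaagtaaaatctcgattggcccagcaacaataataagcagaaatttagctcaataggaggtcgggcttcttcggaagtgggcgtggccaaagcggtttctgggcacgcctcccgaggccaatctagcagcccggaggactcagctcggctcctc
Cox7a2l: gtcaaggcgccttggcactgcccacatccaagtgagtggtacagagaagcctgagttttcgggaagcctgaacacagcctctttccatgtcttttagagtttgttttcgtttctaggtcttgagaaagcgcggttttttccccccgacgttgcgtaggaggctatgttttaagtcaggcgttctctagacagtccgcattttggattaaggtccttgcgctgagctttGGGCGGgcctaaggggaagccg
Atp5h: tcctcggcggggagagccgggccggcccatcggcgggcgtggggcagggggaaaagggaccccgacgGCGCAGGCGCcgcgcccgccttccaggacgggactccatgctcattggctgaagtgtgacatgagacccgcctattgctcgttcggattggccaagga
Uqcrh: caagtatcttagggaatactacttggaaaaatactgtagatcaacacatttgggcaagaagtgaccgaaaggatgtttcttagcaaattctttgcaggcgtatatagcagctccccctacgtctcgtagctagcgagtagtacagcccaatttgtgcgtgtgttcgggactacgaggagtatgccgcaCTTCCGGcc

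Atp5h was at 65.6 and 69.8 CPM in WT and at 53.7 and 59.2 CPM in Sox17eKO, lower in both knockout pools (log2 fold change -0.26, SE 0.08, edgeR adjusted p = 0.0787), and 47.9% of its 50-base windows occur in other transcripts. The called gene without any of the motif letters, Cox6b1, and the gene with the ETS letters, Uqcrh, had log2 fold changes of -0.31 and -0.23, given above with their values in each library.

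Of the 13 subunits encoded by mitochondrial DNA, 8 passed the filter on low counts and were tested. Of these 4 were called higher and 0 lower, against 4.13% and 1.22% of all genes tested, with a median log2 fold change of 0.38. Below the filter were mt-Nd3, mt-Nd4l, mt-Co2, mt-Atp6 and mt-Atp8. The tested mt-Co3 was at 1.32 and 0.76 CPM in WT and at 1.31 and 0.82 CPM in Sox17eKO. Alignments that were not unique were assigned to no gene. With summary rows included, they made up 74.2% and 79.0% of all counts in WT and 72.8% and 72.5% in Sox17eKO. Their part in the levels of this list was not tested. The summed level of the list was 9241 and 7429 CPM in WT and 10316 and 9948 CPM in Sox17eKO, so that both knockout libraries lay above both WT libraries and WT replicate 2, the library in which most nuclear members were highest, was the lowest. mt-Nd4, a proton-pumping subunit of complex I, was at 237 and 198 CPM in WT and at 296 and 305 CPM in Sox17eKO (log2 fold change 0.46, edgeR adjusted p = 0.00431). mt-Cytb of complex III (log2 fold change 0.44, edgeR adjusted p = 0.0099), mt-Nd6 (0.41, 0.0183) and mt-Nd5 (0.35, 0.0311) of complex I also rose. Without WT replicate 2, 0 of the 8 were called, and after removal of the length trend mt-Nd4 alone was called (log2 fold change 0.62, edgeR adjusted p = 0.0058). The log2 fold changes of mt-Cytb, mt-Nd6 and mt-Nd5 were then 0.61, 0.60 and 0.49 (edgeR adjusted p = 0.171, 0.13 and 0.151), larger than before, and the median of the list was 0.55. Whether the nuclear and the mitochondrial genes differed from each other in their response was not tested.

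Nuclear genes of the same system outside the members were counted by list. Of 6 nuclear respiratory genes that the name rule does not reach, 2 were called lower and 0 higher, against 1.22% and 4.13% of all genes tested. Their median log2 fold change was -0.20. Cyc1, the cytochrome c1 subunit of complex III, fell from 154 and 186 CPM in WT to 125 and 143 CPM in Sox17eKO (log2 fold change -0.34, edgeR adjusted p = 0.0427). Higd2a, a factor of complex IV and supercomplex assembly, fell from 49.0 and 54.1 CPM to 38.1 and 41.6 CPM (log2 fold change -0.36, edgeR adjusted p = 0.0288). Cycs, cytochrome c itself, and Higd1a had log2 fold changes of 0.02 and 0.12 (edgeR adjusted p = 0.959 and 0.561). The calls of Cyc1 and Higd2a were lost without WT replicate 2 and once the length trend was taken out (log2 fold changes then -0.20 and -0.17, edgeR adjusted p = 0.251 and 0.427). Of 35 tested assembly factors outside the name rule 0 were called (4 lower and 1 higher at an unadjusted p under 0.05), with a median of -0.07, and DESeq2 called 0 of them. Of 14 enzymes of the citric acid cycle, which feeds the chain, 0 were called and 0 had an unadjusted p under 0.05, with a median of -0.05.

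Of 17 regulators of mitochondrial gene expression, 2 were called higher and 0 lower, against 4.13% and 1.22% of all genes tested. The median log2 fold change of the list was 0.07. Once the length trend was taken out, the median was 0.02 and 8 of the 17 were fitted lower. Ppargc1a, the coactivator PGC-1alpha known for raising respiratory gene transcription, was at 69.3 and 62.2 CPM in WT and at 85.4 and 95.2 CPM in Sox17eKO (log2 fold change 0.45, edgeR adjusted p = 0.00456). Its relative Ppargc1b was at 8.84 and 8.98 CPM in WT and at 13.1 and 14.1 CPM in Sox17eKO (log2 fold change 0.62, edgeR adjusted p = 0.0185). Both calls held once the length trend was taken out (log2 fold change 0.39 and 0.62, edgeR adjusted p = 0.0159 and 0.0359), and without WT replicate 2 neither was called. Nrf1, Gabpa, Tfam and Yy1, which act on respiratory genes or on mitochondrial DNA, had log2 fold changes of 0.07, 0.03, -0.14 and -0.06, with edgeR adjusted p from 0.379 to 0.875.

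**Figure D4:**
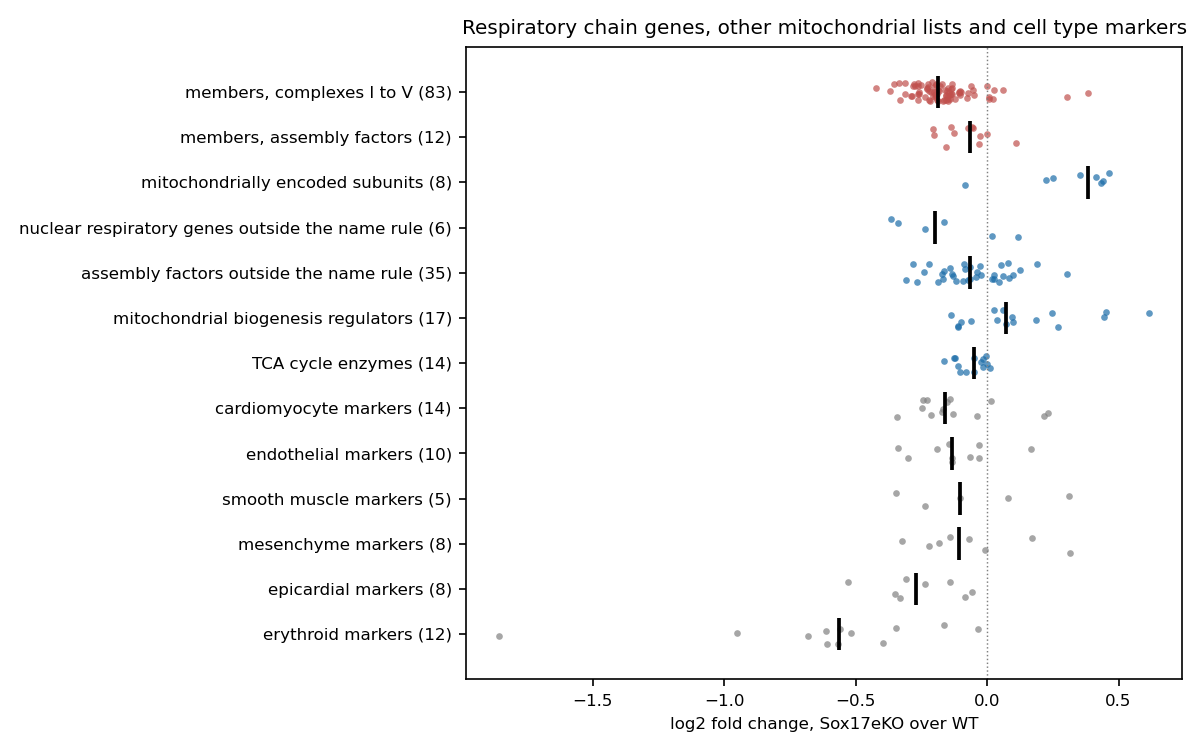
Log2 fold change (Sox17eKO over WT) of each tested gene in the member groups (red), other mitochondrial lists (blue) and cell type marker lists (grey), with the number of genes tested in brackets and the median as a black line. The subunits of complexes I to V centre on -0.19 and the subunits encoded by mitochondrial DNA on 0.38, and the erythroid markers spread furthest to the left.

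Markers of the cell types in the tissue moved beside the members, and their part in the members' values was not tested. Among all genes tested, 1.22% were called lower and 4.13% higher. Of 14 cardiomyocyte markers 1 was called lower (Nppa) and 0 higher, with a median log2 fold change of -0.16, and their summed level was 30311 and 31787 CPM in WT and 29317 and 31335 CPM in Sox17eKO, with overlap. Both knockout libraries lay below both WT libraries for 10 of the 14, against 26.2% of all genes tested. They lay above for 2, against 26.5% of all genes. These were Myh6 and Myh7 (log2 fold change 0.23 and 0.22, edgeR adjusted p = 0.109 and 0.219). Of 12 erythroid markers, from cells that lose their mitochondria as they mature, 1 was called lower (Hbb-y) and all 12 were fitted lower, with a median of -0.56 and sums of 2650 and 3573 CPM in WT against 1737 and 2355 CPM in Sox17eKO. Of 8 epicardial markers 2 were called lower (Upk3b and Lrrn4), with a median of -0.27 and sums of 386 and 418 CPM against 357 and 320 CPM. Of 10 endothelial markers 1 was called lower (Tie1), with a median of -0.13 and sums of 1014 and 1053 CPM against 940 and 1003 CPM. Smooth muscle markers had 1 called lower (Cnn1) and 1 higher (Myocd) of 5, and mesenchyme markers 1 lower (Dcn) and 1 higher (Pdgfra) of 8, with medians of -0.10 for both lists. The sums were 1913 and 1951 against 1770 and 1720 CPM for smooth muscle and 4376 and 3930 against 4227 and 4241 CPM for mesenchyme. Every marker listed was detected and tested. Once the length trend was taken out, the calls of Tie1, Lrrn4 and Dcn held. Those of Nppa, Hbb-y, Upk3b, Cnn1, Myocd and Pdgfra were lost, and Col1a2 was called lower. The medians were then -0.04 for cardiomyocyte, -0.39 for erythroid, -0.17 for epicardial and -0.08 for endothelial markers. They were -0.00 for smooth muscle and -0.09 for mesenchyme markers.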

How the data were processed

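Counts per gene were measured in 4 libraries, 2 per genotype, grouped and numbered by their titles. The authors deposited raw counts for Ensembl gene identifiers. TopHat2, HTSeq and mm10 are named in the submitters' processing notes, and tool versions, the gene annotation used and any strand setting are not given in the sources used here. Libraries were strand-specific per the labels' protocols. Symbols, coordinates and lengths came from GENCODE M21 (GRCm38), matched for 45143 of 45706 genes, with 5 summary rows left out of library sizes and tests. Total counts per library were 8113463 to 21883956.

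Differences were tested by quasi-likelihood in edgeR 4.0.16 (R 4.3.3, with the robust option, a prior count of 0.125 and TMM factors) on the 16570 genes that passed filterByExpr, with genotype as the only term, called at an adjusted p under 0.05. Standard errors were derived from the log2 fold change and its F statistic. Levels per kilobase used the principal mRNA. The spread rests on 2 pools per genotype. The edgeR p-values set each fold change against a spread between pools that borrows from all genes tested. Spread between embryos was not measured. The scripts were tested on simulated data. Alternatives were other scalings and filters, DESeq2 1.42.0, limma-voom (limma 3.58.1), edgeR without its robust option, a block for the replicate number, the omission of each library, protein-coding genes only, and trends on length or GC removed (mgcv 1.9.3).

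The members and lists were chosen with earlier results of these data known. Named members were those called, the 2 highest and 2 lowest fold changes and the highest level per kilobase in each group, and the paralogue sets, 37 in all. Atp5h was added for its promoter. No list was tested as a set.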

Additional observations from a re-analysis of the deposited data

Results flagged for a closer look

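Reads placed uniquely but outside annotated features enter none of the comparisons. They made up 31.8% ± 3.27 (SD, n = 2) of the uniquely placed reads in Sox17eKO and 21.3% ± 1.28 (SD, n = 2) in WT, a higher share in both knockout libraries than in both WT libraries. With 2 libraries per genotype an exact permutation test cannot pass a threshold of 0.05. Its part in the lower fitted levels of the respiratory chain genes was not tested.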

How the results depend on the processing

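The count of members called higher was 0 in each of the 18 alternatives. The 886 genes called became 1364 with no filter on low counts, 409 with DESeq2, 517 with limma-voom, 134 with the length trend removed, 272 with length and GC trends removed and 192 to 1219 with 1 library left out. The 3 members called lower became 9 with no filter, 1 with limma-voom, 1 without the robust option, 0 with the length trend removed, 1 with length and GC trends removed and 0 to 13 with 1 library left out. The members' median log2 fold change of -0.17 became -0.042 with the length trend removed, -0.054 with length and GC trends removed and -0.21 to -0.12 with 1 library left out. Replicate numbers are shared by both genotypes, but nothing in the labels pairs the pools, and same-numbered pools did not deviate together (r = -0.02 across genes). With the replicate block, 1684 genes and 19 members were called, and with the block and the length trend removed 1 member, with a median of -0.034. Of 629 comparisons of the 37 named members with an alternative, 23 lost a call, 12 gained one, and 84 others moved by more than 1 standard error. A fitted sign turned in 40, each of a gene called in neither setting. The cause of these shifts was not tested beyond the values given. Cox6b2, Atp5g2 and Cox8b had few reads and wide intervals that span 0.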
